A study of Mus musculus with 32 samples.

Results

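The set described here holds 10 genes with which phagocytes take up dying cells, modified lipoproteins and debris: the receptors Mertk, Axl and Tyro3, their ligands Gas6 and Pros1, and the scavenger receptors Msr1, Cd36, Marco, Cd68 and Scarb1. They were chosen by gene symbol with earlier results of these data known, so counts of members beside all genes describe the set and do not test it. All 10 were found among the 23337 genes of the deposited count table. Their RNA was followed in 32 libraries, prepared from 2 sorts of mouse glioma cells at 3 stages of a trial of BLZ945, an inhibitor of the receptor CSF-1R on which macrophages and microglia depend.

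Tumours were started, per the labels' protocols, in XFM mice of 5 to 6 weeks by intracranial injection of DF-1 cells, a chicken fibroblast line, carrying PDGFB. The labels do not define XFM further, and all groups share this strain and this tumour. Mice entered the trial once tumours measured 20 to 40 cubic millimetres and were dosed each day, up to symptoms or an age of 26 weeks. Vehicle tumours came from mice given vehicle alone. Endpoint tumours, which the labels also call dormant, and Rebound tumours came from mice given BLZ945. Since the labels give BLZ945 as the agent of all libraries, Vehicle among them, the stage was taken to tell the treatment. Each tumour was sorted into CD11b+ Gr1- cells, called TAM here for tumour-associated macrophages and microglia, and into PDGFRA+ cells, labelled tumour cells (TC). The TAM libraries numbered 5 at Vehicle, 6 at Endpoint and 5 at Rebound, as did the TC libraries. Each is from a different mouse within its group, and 15 of the 17 mice gave both sorts.

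In efferocytosis, the clearance of dying cells, phosphatidylserine on the dying cell is bridged by GAS6 or protein S, the product of Pros1, to the receptor kinases TYRO3, AXL and MERTK on the phagocyte. GAS6 can engage all members of this receptor family, whereas protein S acts through TYRO3 and MERTK. Scavenger receptors bind oxidised lipoproteins, lipids and other polyanionic ligands, and in the brain microglia use receptors of both kinds to remove apoptotic cells and myelin debris.

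Library totals ranged from 25556830 to 30383148 counts for TAM Vehicle, 9543888 to 15789460 for TAM Endpoint and 15352174 to 19561440 for TAM Rebound. They ranged from 13126801 to 22989777 for TC Vehicle, 4180176 to 14029216 for TC Endpoint and 10501264 to 16460126 for TC Rebound. Every count was even in the BLZ945 libraries, while 47.1 to 49.5% of the nonzero counts were even in the Vehicle libraries. This difference in the files follows treatment, and its part in comparisons with Vehicle cannot be told apart from that of the drug. All 8 myeloid markers had counts in every TAM group, with summed levels of 10080 to 31820 CPM, the usual count normalised to library size. The 7 markers of tumour cells and oligodendrocyte precursors summed to 1924 to 7086 CPM in TC Vehicle and 1762 to 5978 CPM in TC Rebound, but to 193 to 1766 CPM in TC Endpoint. The TC Endpoint libraries therefore went against their label in part. Their 6 ependymal and choroid plexus markers summed to 6353 to 215700 CPM, against 10.8 to 610.5 CPM in TC Vehicle. Markers of T and NK cells were highest in 8 libraries, those of TAM Rebound mice 49041, 49059 and 49849, of TC Endpoint mice 49823, 49825, 49830 and 49831, and of TC Rebound mouse 49827. Their mean was at least 2.33 log2 CPM there, against at most 2.10 in the others. Tests of the members were also computed without these libraries, whereas those of the marker lists and of other uptake genes were not.

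Promoter sequence from RefSeq (GRCm38.p6), running from 250 bases before to 50 bases after the annotated start, was found for 8 of the 10 genes, all but Msr1 and Scarb1. The promoters of 3 genes are shown. In TAMs Gas6 was lower under BLZ945, Axl was higher at Rebound than in Vehicle, and Cd68 was the most abundant member, also lower at Endpoint. Capitals mark matches, on either strand, to the GC box GGGCGG, the AP-1 motif TGANTCA and the ETS core GGAAGT, none of which overlap here. Gas6 is printed from chr8:13494486-13494785, Axl from chr7:25788684-25788983 and Cd68 from chr11:69666121-69666420, each on the minus strand and 5′ to 3′.
Gas6: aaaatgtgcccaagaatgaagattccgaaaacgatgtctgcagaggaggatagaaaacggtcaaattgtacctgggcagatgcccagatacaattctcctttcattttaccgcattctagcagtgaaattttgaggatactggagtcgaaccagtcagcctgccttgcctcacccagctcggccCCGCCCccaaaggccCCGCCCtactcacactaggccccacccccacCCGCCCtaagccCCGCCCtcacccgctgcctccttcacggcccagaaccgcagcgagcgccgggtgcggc
Axl: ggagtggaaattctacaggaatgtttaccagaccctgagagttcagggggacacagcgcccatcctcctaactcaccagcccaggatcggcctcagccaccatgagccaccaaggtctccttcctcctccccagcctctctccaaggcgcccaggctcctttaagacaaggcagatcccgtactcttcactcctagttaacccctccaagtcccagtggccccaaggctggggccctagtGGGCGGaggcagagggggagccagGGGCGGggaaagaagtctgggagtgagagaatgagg
Cd68: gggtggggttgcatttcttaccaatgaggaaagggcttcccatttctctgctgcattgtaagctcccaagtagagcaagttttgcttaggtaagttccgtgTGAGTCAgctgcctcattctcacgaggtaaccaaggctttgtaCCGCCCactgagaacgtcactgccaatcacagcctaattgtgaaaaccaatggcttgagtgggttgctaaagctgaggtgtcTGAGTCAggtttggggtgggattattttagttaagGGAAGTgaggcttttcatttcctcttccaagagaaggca
The Gas6 window held 4 GC boxes and the Axl window 2. The Cd68 window held 2 AP-1 motifs, 1 GC box and 1 ETS core. Among 32851 mouse promoters of this length, 35.7% held a GC box, 7.81% the AP-1 motif and 23.8% the ETS core. Of the other members, Mertk held 4 GC boxes, Tyro3 6, Pros1 5 and Cd36 2, with 1 ETS core in Cd36, and Marco held none of these motifs. These are matches of letters only.

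In TAMs, the ligand Gas6 and the scavenger receptors Msr1, Scarb1 and Cd68 were lower at Endpoint than in Vehicle. The receptor Axl was higher at Rebound than in Vehicle, and Msr1 and Scarb1 were higher at Rebound than at Endpoint. Of the 9 members tested (Marco fell below the filter on low counts), 4 were lower and 0 higher at Endpoint than in Vehicle at an adjusted p under 0.05 (edgeR), with 33% of the 13315 genes tested called in that comparison (13.7% higher and 19.3% lower). At Rebound against Vehicle, 1 was higher and 2 were lower, with 14.7% of all genes called (7% higher and 7.73% lower). At Rebound against Endpoint, 2 were higher and 0 lower, with 17.6% of all genes called (11.7% higher and 5.9% lower). The median log2 fold change of the 9 members was -0.03 at Endpoint against Vehicle, beside -0.03 over all genes, and 0.37 at Rebound against Endpoint, beside 0.02. Without the 8 libraries highest in T and NK markers, the members called at Rebound numbered 0 against Vehicle and 1 against Endpoint. That setting leaves 2 Rebound TAM mice, and calls over all genes went from 1961 to 525 and from 2337 to 592. These are bulk libraries, so fewer cells of a type and less RNA per cell cannot be told apart.

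Markers of other cells differed between the TAM groups. Of 16 marker lists, 4 were higher and 5 lower at Endpoint than in Vehicle (exact two-sided permutation tests on the mean log2 CPM), 3 higher and 2 lower at Rebound than in Vehicle, and 6 higher and 2 lower at Rebound than at Endpoint. The lowest p this permutation test can give is 0.00433 with 5 against 6 libraries (adjusted 0.0231) and 0.00794 with 5 against 5 (adjusted 0.032). An adjusted p of 0.0231 is thus its floor and no measure of effect size, and Rebound against Vehicle had the higher floor. In the order Vehicle, Endpoint and Rebound, markers of tumour cells and oligodendrocyte precursors averaged 1.14, -0.29 and 2.58 log2 CPM, those of oligodendrocytes 2.85, 3.998 and 5.30, of astrocytes 4.61, 5.71 and 5.17 and of neurons -0.40, 1.24 and -0.04. Endothelial markers averaged 1.17, -0.02 and 2.3, pericyte and fibroblast markers -0.63, -1.24 and 2.28, ependymal and choroid markers -1.85, -0.25 and -0.38, and T and NK markers -0.60, 0.11 and 2.22. Homeostatic microglia markers averaged 11.02, 10.75 and 9.82 log2 CPM. Summed levels were at most 207.7 CPM for the precursor, neuron, endothelial, pericyte and T and NK lists, and reached 413 CPM for the ependymal, 3045 CPM for the oligodendrocyte and 2539 CPM for the astrocyte list. Ccdc153 was at 0 in Vehicle and Endpoint, Foxj1 in Vehicle and Rebound and Rgs5 at Endpoint. The part of these cells in the members' changes was not tested.

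**Figure D1:**
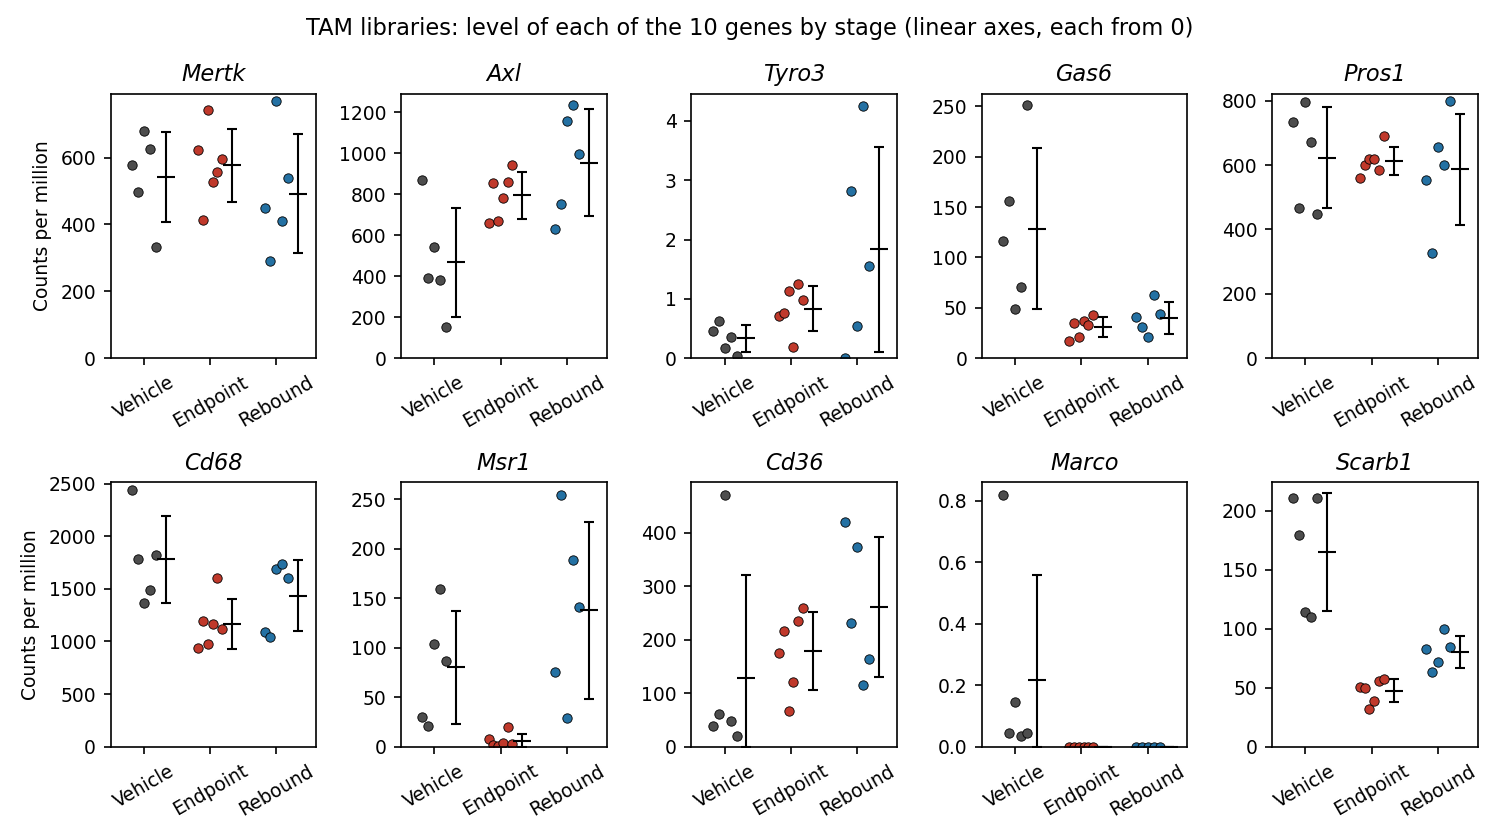
Level of each of the 10 genes in the TAM libraries, in CPM on linear axes from 0. Points are mice, and the bar beside each group is the mean with its SD, cut at 0; Scarb1 and Msr1 lie lower in all 6 Endpoint mice than in any Vehicle mouse, whereas Mertk and Pros1 overlap at every stage.

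Mertk, the receptor on chromosome 2 (GRCm38 128698956 to 128802894, plus strand) through which macrophages engulf apoptotic cells, was high in TAMs at every stage. It stood at 578, 496, 678, 627 and 332 CPM in the Vehicle mice 54359, 54363, 57098, 57682 and 64247. At Endpoint it ranged from 414 through a median of 577 to 742 CPM, and in the Rebound mice 49041, 49059, 49827, 49834 and 49849 it was 448, 292, 768, 410.3 and 538 CPM. The 3 groups overlapped, with means of 542 ± 135 (SD, n = 5), 577 ± 109 (SD, n = 6) and 491 ± 178 CPM (SD, n = 5). The log2 fold change was 0.09 (SE 0.23, edgeR adjusted p = 0.794) at Endpoint and -0.14 (SE 0.24, adjusted p = 0.729) at Rebound, both against Vehicle.

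Axl, a receptor of the same family that binds GAS6 (chromosome 7, 25757273 to 25788705, minus strand), was the member called higher at Rebound than in Vehicle. Its TAM level was 870.5, 391, 545, 379.5 and 151.5 CPM in the Vehicle mice in the order above. At Endpoint it ran from 658 through a median of 817 to 942 CPM, and at Rebound it was 632, 751, 1159, 1238 and 995 CPM. Vehicle mouse 54359 lay within the range of both BLZ945 groups, while the other 4 Vehicle mice lay below every BLZ945 mouse. Axl rose at Rebound by 1.03 on the log2 scale, or 2.04-fold (SE 0.31, edgeR adjusted p = 0.0339). At Endpoint the value was 0.77 (SE 0.30, edgeR adjusted p = 0.0581), which missed the threshold. The difference of Rebound from Endpoint was 0.27 (SE 0.30, edgeR adjusted p = 0.586), so the BLZ945 groups were not told apart. The Rebound call was lost in 9 of the 23 alternative settings, with adjusted p up to 0.101, among them leaving out Vehicle mouse 54363, 57682 or 64247 or Rebound mouse 49827, 49834 or 49849. The Endpoint call was gained without Vehicle mouse 54359 (log2 1.13, edgeR adjusted p = 0.00529) and under DESeq2 (0.78, adjusted p = 0.0283).

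Tyro3, the family member known mainly from neurons and oligodendrocytes (chromosome 2, 119797733 to 119818104, plus strand), was near the floor in TAMs. Its level was at most 0.622 CPM in Vehicle, 1.26 CPM at Endpoint and 4.25 CPM at Rebound, where mouse 49041 had no count. Rebound mice 49834 and 49059 were the highest, with 66 and 48 counts, and the groups overlapped. The log2 difference of Rebound from Vehicle was 2.45 (SE 0.92, edgeR adjusted p = 0.0807). It passed without Rebound mouse 49041 (2.77, edgeR adjusted p = 0.0286), with BLZ945 counts halved (2.43, adjusted p = 0.0493) and under DESeq2 (2.49, adjusted p = 0.0316).

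Gas6, the vitamin K-dependent ligand of these receptors (chromosome 8, 13465374 to 13494490, minus strand), was lower in TAMs under BLZ945. It was at 116, 156, 48.7, 70.8 and 251 CPM in the Vehicle mice. At Endpoint it ranged from 17.1 through a median of 33.7 to 43.3 CPM, and at Rebound it was 40.4, 31.3, 21.04, 63.1 and 43.6 CPM. All 6 Endpoint mice lay below every Vehicle mouse, whereas at Rebound mouse 49834 lay above the lowest Vehicle mouse. Gas6 fell by 2.06 on the log2 scale at Endpoint, or 4.16-fold (SE 0.37, edgeR adjusted p = 0.000523), and by 1.69 at Rebound (SE 0.39, adjusted p = 0.0093). The difference of Rebound from Endpoint was 0.37 (SE 0.37, edgeR adjusted p = 0.53). Without the 8 libraries highest in T and NK markers, which leaves 2 Rebound mice, the Rebound value against Vehicle was -1.62 with an adjusted p of 0.14.

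Pros1 encodes protein S, the other bridging ligand and an anticoagulant cofactor (chromosome 16, 62854307 to 62929346, plus strand). It stood at 735, 466, 797, 671 and 448.5 CPM in the Vehicle TAMs. The Endpoint values ran from 561 through 609 to 689.8 CPM, and the Rebound values were 555, 326, 655, 599 and 799 CPM. The groups overlapped throughout, with means of 623 ± 158 (SD, n = 5), 612 ± 43.8 (SD, n = 6) and 587 ± 172 CPM (SD, n = 5). The log2 change was -0.03 (SE 0.20, edgeR adjusted p = 0.932) at Endpoint and -0.09 (SE 0.21, adjusted p = 0.819) at Rebound.

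Among the scavenger receptors, Msr1, the class A receptor for modified lipoproteins (chromosome 8, 39581685 to 39642673, minus strand), differed most between stages. Its TAM level was 30.1, 20.8, 104, 159 and 86.2 CPM in Vehicle. At Endpoint it was between 0.994 and 19.8 CPM with a median of 2.98, and at Rebound it was 75.6, 255, 28.6, 188 and 141 CPM. Every Endpoint mouse lay below every mouse of the other groups, and Endpoint mouse 49843 was the highest of its group. Msr1 fell by 3.74 on the log2 scale at Endpoint against Vehicle, or 13.4-fold (SE 0.80, edgeR adjusted p = 0.00248). It was 23-fold higher at Rebound than at Endpoint (log2 4.52, SE 0.82, edgeR adjusted p = 0.00189), and at Rebound against Vehicle the difference was 0.78 (SE 0.76, adjusted p = 0.527). Without Endpoint mouse 49843 the first 2 changes were -4.61 (edgeR adjusted p = 0.000454) and 5.39 (adjusted p = 0.000514).

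Border macrophage and dendritic cell markers were lower at Endpoint and higher at Rebound, as Msr1 was. By the mean of the markers, so were those of endothelial cells and those of tumour cells and oligodendrocyte precursors. Their adjusted p was 0.0231 and 0.0416 for Endpoint against Vehicle, and 0.0231 for each at Rebound against Endpoint (exact permutation test). The 6 border macrophage markers, all with counts in every TAM group, averaged 2.26 log2 CPM in Vehicle, 0.49 at Endpoint and 2.44 at Rebound (exact two-sided permutation test, adjusted p = 0.0449 for Endpoint against Vehicle and 0.032 for Rebound against Endpoint). Their summed level was 24.1 to 319.6, 10.1 to 60.4 and 24.2 to 254 CPM. The 5 monocyte markers averaged 4.13, 2.24 and 5.20 log2 CPM, with summed levels of 73.5 to 1098, 14.9 to 205.8 and 91.7 to 792 CPM (exact permutation test, adjusted p = 0.157 and 0.0416 for the same comparisons, the latter 0.0656 with the median of the markers). The 6 dendritic cell markers averaged 2.11, 0.72 and 2.73 log2 CPM, with summed levels of 53.5 to 96.0, 24.5 to 55.1 and 41.5 to 371 CPM (exact permutation test, adjusted p = 0.0231 for both comparisons). All of these markers had counts in each TAM group, and their part in the change of Msr1 was not tested.

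Scarb1, the receptor for high-density lipoprotein that also binds phosphatidylserine (chromosome 5, 125277087 to 125341094, minus strand), had the lowest adjusted p of the members at Endpoint. Its TAM level was 211, 179, 114, 109.7 and 211 CPM in Vehicle. At Endpoint it ran from 32.4 through 50.04 to 57.2 CPM, and at Rebound it was 82.5, 63.6, 72.2, 99.7 and 84.6 CPM. The 3 groups did not overlap, Rebound lying between the others. Scarb1 fell by 1.802 at Endpoint, or 3.49-fold (SE 0.21, edgeR adjusted p = 7.82e-06), and by 1.04 at Rebound (SE 0.21, adjusted p = 0.00458). It was higher by 0.77 at Rebound than at Endpoint (SE 0.20, edgeR adjusted p = 0.0136). Without the 8 libraries highest in T and NK markers the Rebound differences were -0.95 against Vehicle and 0.87 against Endpoint, with adjusted p of 0.0923 and 0.0901.

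Cd68, the lysosomal glycoprotein used as a general macrophage marker (chromosome 11, 69664213 to 69666153, minus strand), changed least among the members that passed the test at Endpoint. It stood at 2439, 1780, 1369, 1484 and 1825 CPM in the Vehicle TAMs, from 942 through 1140 to 1607 CPM at Endpoint, and at 1089, 1046, 1689, 1739 and 1606 CPM at Rebound. Only Endpoint mouse 49843 reached into the Vehicle range. Cd68 fell by 0.61, or 1.53-fold, at Endpoint (SE 0.20, edgeR adjusted p = 0.0223), and the Rebound value was -0.31 (SE 0.21, adjusted p = 0.328). The Endpoint call was lost without Vehicle mouse 54359 (-0.46, adjusted p = 0.0794) or Endpoint mouse 49823 (-0.55, adjusted p = 0.0529). The 8 myeloid markers averaged 10.57 log2 CPM in Vehicle and 10.08 at Endpoint, a difference of -0.49 (exact two-sided permutation test, adjusted p = 0.0231), and their part in the change of Cd68 was not tested.

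Cd36, a receptor for fatty acids and oxidised lipoproteins (chromosome 5, 17781690 to 17888801, minus strand), turned on a single Vehicle mouse. Its TAM level was 39.5, 61.5, 471, 47.2 and 19.2 CPM in Vehicle, mouse 57098 holding the high value. At Endpoint it ran from 66.0 through 196 to 259 CPM, and at Rebound it was 419.9, 230.4, 372, 116 and 165 CPM. Mouse 57098 lay above all 11 BLZ945 mice and the other 4 Vehicle mice below them. With all mice the log2 change was 0.49 (SE 0.70, edgeR adjusted p = 0.627) at Endpoint and 1.03 (SE 0.73, adjusted p = 0.374) at Rebound. Without mouse 57098 it was 2.09 (edgeR adjusted p = 0.00232) and 2.63 (adjusted p = 0.00253).

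Marco, a class A scavenger receptor of lung and marginal-zone macrophages (chromosome 1, 120474538 to 120505024, minus strand), was nearly undetected. The Vehicle TAM libraries held 23 counts together, 16 of them in mouse 54359 and at least 1 in each of the others. The TAM Endpoint and TAM Rebound libraries held 0 counts. Counts there come in steps of 2, and 3 such steps, or 6 counts, would be 0.0781 and 0.0707 CPM over each group, in counting error only. The Vehicle level, pooled over the group, was 0.164 CPM with all mice and 0.0621 CPM without mouse 54359, the latter below those limits, so a difference was not detectable at this depth without that mouse. Marco was below the filter for the test. In TC libraries 4 counts were found, all in Rebound mouse 49059.

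**Figure D2:**
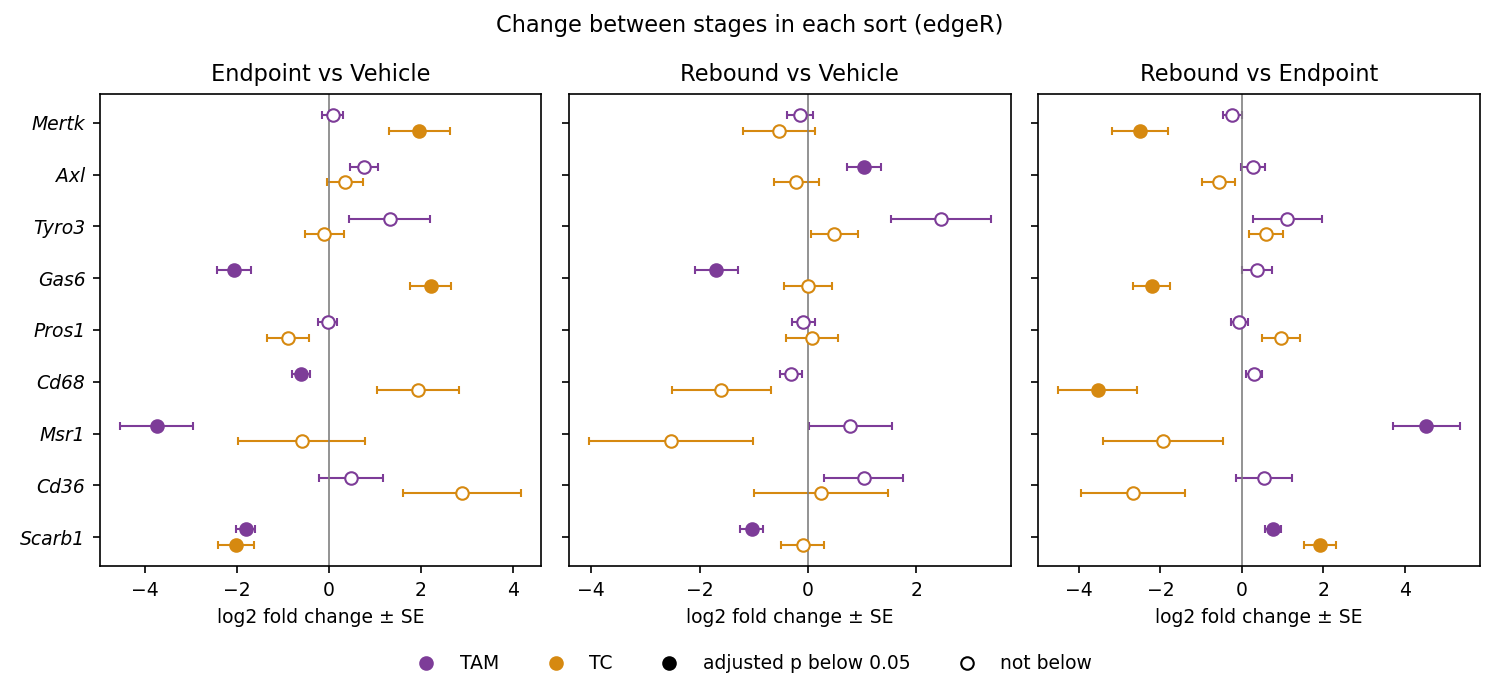
Log2 fold changes with their SE (edgeR) for the 9 members tested, in TAM and TC libraries, in the 3 stage comparisons. Filled points have an adjusted p below 0.05; Gas6 lies at -2.06 in TAMs and 2.22 in TC libraries at Endpoint against Vehicle, while Scarb1 is negative in both.

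Levels of different genes were compared per kilobase of annotated exon, in CPM per kb on a scale common to both sorts. In Vehicle TAMs the order was Cd68 at 1802 ± 446, Pros1 at 195 ± 54.5, Mertk at 160 ± 42.9, Axl at 119 ± 70.6, Gas6 at 63.5 ± 38.2, Cd36 at 46.0 ± 70.0, Scarb1 at 24.7 ± 7.43, Msr1 at 16.1 ± 11.4, Marco at 0.147 ± 0.232 and Tyro3 at 0.0681 ± 0.0459 CPM per kb (SD, n = 5). Cd68 stood apart from the rest by more than its SD. From Pros1 down to Msr1 each gene differed from the next by less than the larger of their SDs, as did Marco from Tyro3, so the order of such neighbours is not resolved. Counted over the longest transcript, Scarb1 was at 67.7 and Msr1 at 28.0 CPM per kb, which moves Scarb1 above Gas6. At Endpoint Axl, at 185 ± 25.3 CPM per kb, differed from Pros1 at 175 ± 14.2 and Mertk at 156 ± 31.0 (SD, n = 6) by less than the larger SD. At Rebound the same genes were at 226 ± 57.4, 171 ± 47.6 and 135 ± 47.8 CPM per kb (SD, n = 5).

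In the TC libraries, Endpoint again stood apart, in part in the opposite direction. Gas6 and Mertk were higher and Scarb1 lower at Endpoint than in Vehicle, 3 of the 9 members tested, with 28.7% of the 14985 genes called in that comparison (14% higher and 14.8% lower). At Rebound against Vehicle 0 members were called by edgeR, and 0.0734% of all genes were called (0.04% higher and 0.0334% lower). An unadjusted p under 0.05 was found for 0 members, and the share of all genes at that threshold was not computed. DESeq2 also called 0 there. Without Rebound mouse 49827 the members called numbered 5 at Endpoint against Vehicle and 1 at Rebound against Vehicle. Over all genes 4808 and 586 were then called, against 4305 and 11 with that mouse. At Rebound against Endpoint 1 member was higher and 3 were lower, with 25.1% of all genes called (13.6% higher and 11.5% lower).

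**Figure D3:**
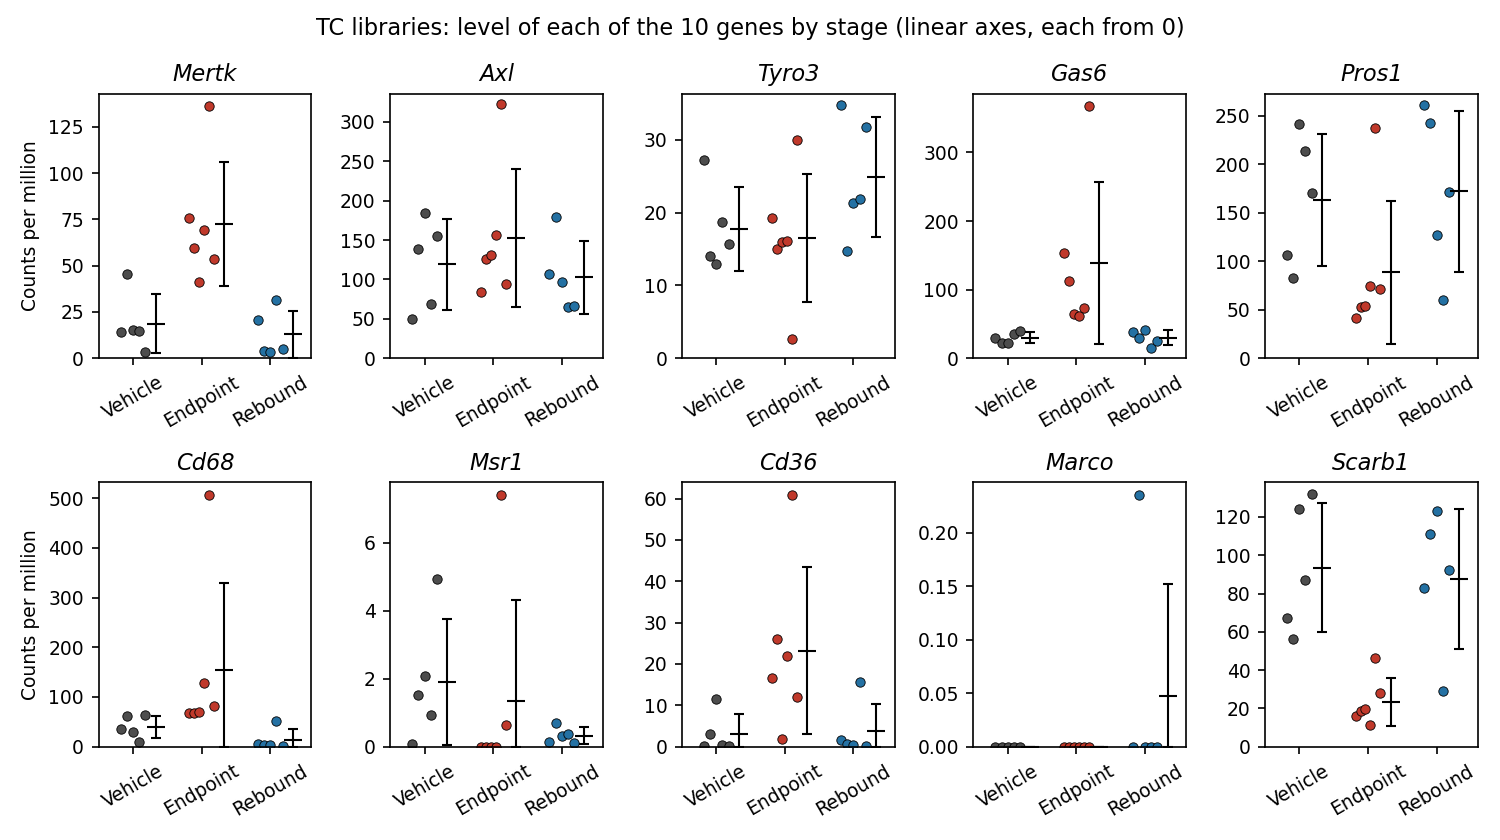
Level of each of the 10 genes in the TC libraries, in CPM on linear axes from 0. Points are mice, and the bar beside each group is the mean with its SD, cut at 0. Gas6 is higher in all 6 Endpoint mice than in any other mouse. Mouse 49843 is the highest of its Endpoint group for Mertk, Axl, Pros1, Cd68, Msr1, Cd36 and Scarb1.

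Gas6 in the TC libraries was 29.7, 22.3, 22.3, 35.8 and 39.4 CPM in the Vehicle mice. At Endpoint it ran from 61.0 through a median of 92.8 to 368 CPM, with mouse 49845 the highest, and in the Rebound mice 49041, 49059, 49692, 49827 and 49849 it was 38.8, 29.0, 41.5, 15.4 and 25.2 CPM. Every Endpoint library lay above all others. Gas6 rose by 2.22 on the log2 scale at Endpoint, or 4.64-fold (SE 0.45, edgeR adjusted p = 0.00279), and was lower by 2.21 at Rebound than at Endpoint (log2 -2.21, SE 0.45, adjusted p = 0.00334).

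Gas6 shares 34 exonic bases with Tmem255b, listed in the table as Fam70b, on the other strand, and the library kit does not mark strand. Fam70b was at 8.67 to 74.8 CPM in TC Vehicle, 5.88 to 50.5 CPM in TC Endpoint and 0.918 to 23.4 CPM in TC Rebound, and at most 0.711 CPM in any TAM library. The Endpoint value of 50.5 CPM was in mouse 49845, also the highest for Gas6, and the other Endpoint mice were at 5.88 to 12.7 CPM. The part of Fam70b in the level of Gas6 was not tested. Markers of ependyma and choroid plexus averaged 0.45 log2 CPM in TC Vehicle, 6.42 at Endpoint and 0.90 at Rebound (exact two-sided permutation test, adjusted p = 0.0231 for Endpoint against either). All 6 of these markers had counts in each TC group, and they summed to 2.56 to 1143 CPM at Rebound. Pericyte and fibroblast markers averaged 2.31, 4.70 and 6.78 log2 CPM in the same order, with summed levels of 11.4 to 121, 137 to 601 and 94.0 to 6487 CPM. The part of these cells in the level of Gas6 was not tested. The T and NK markers summed to 35.0 and 8.78 CPM in Endpoint mice 49843 and 49845, where Gas6 was at 73.7 and 368 CPM, and to 3489 CPM or more in the other 4, where it was at 61.0 to 153 CPM. Without mouse 49845 the Endpoint change of Gas6 was 1.61 against Vehicle (edgeR adjusted p = 0.00316) and the Rebound change -1.62 against Endpoint (adjusted p = 0.00402), and without the 8 libraries highest in T and NK markers the Endpoint change was 2.88 (adjusted p = 0.00817).

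Mertk in the TC libraries was 14.3, 45.5, 15.2, 14.6 and 3.22 CPM in Vehicle and 41.2 to 136 CPM, with a median of 64.5, at Endpoint. At Rebound it was 20.8, 4.01, 3.20, 31.6 and 4.73 CPM. All Endpoint libraries lay above all Rebound libraries, while Vehicle mouse 54363 reached into the Endpoint range. The log2 change was 1.97 at Endpoint (SE 0.67, edgeR adjusted p = 0.0373) and -2.50 from Endpoint to Rebound (SE 0.69, adjusted p = 0.0156). The Endpoint call was lost in 10 of 23 settings, with adjusted p from 0.0505 to 0.0922, among them leaving out Endpoint mouse 49823, 49825, 49831 or 49843 or Vehicle mouse 54359, 57098, 57682 or 64247. Without Vehicle mouse 54363 the Endpoint change was 2.62 (edgeR adjusted p = 0.0137). The change from Endpoint to Rebound was -3.15 without Rebound mouse 49827 (edgeR adjusted p = 0.00269) and -3.53 without the 8 libraries highest in T and NK markers (adjusted p = 0.0193).

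Cd68 in the TC libraries was highest at Endpoint. It was 35.8, 61.1, 29.8, 9.67 and 62.9 CPM in Vehicle, 67.8 to 507 CPM with a median of 75.6 at Endpoint, and 6.17, 3.07, 2.67, 52.3 and 2.04 CPM at Rebound. Endpoint lay above both other groups without overlap, mouse 49843 being its highest. The log2 change was 1.95 at Endpoint (SE 0.89, edgeR adjusted p = 0.115), which missed the threshold, and -3.54 from Endpoint to Rebound (SE 0.97, adjusted p = 0.016). The Endpoint call was gained in 4 settings: without Rebound mouse 49827 (1.94, edgeR adjusted p = 0.0232), with only those groups fitted (1.90, adjusted p = 0.0423), without the 8 libraries highest in T and NK markers (2.88, adjusted p = 0.0252) and under DESeq2 (1.99, adjusted p = 0.0311). Without mouse 49827, the highest of the Rebound group, Cd68 was also lower at Rebound than in Vehicle (log2 -3.51, edgeR adjusted p = 0.0137), and its change from Endpoint to Rebound was -5.46. That change was -2.65 without Endpoint mouse 49843 and -6.39 without the 8 libraries.

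The 8 myeloid markers in the TC libraries averaged 5.01 log2 CPM in Vehicle, 6.87 at Endpoint and 1.96 at Rebound (exact two-sided permutation test, adjusted p = 0.0231 for Endpoint against Vehicle and for Rebound against Endpoint). Their summed level was 107 to 789.6, 725 to 3921 and 16.8 to 1305 CPM, and all 8 had counts in each group. Endpoint mouse 49843 had the highest myeloid mean of the TC libraries, 8.35 log2 CPM. Their part in the levels of Mertk and Cd68 was not tested.

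Scarb1 in the TC libraries was 67.4, 56.2, 124, 87.2 and 132 CPM in Vehicle, 11.1 to 46.1 CPM with a median of 19.0 at Endpoint, and 82.9, 111, 123, 28.8 and 92.4 CPM at Rebound. All Endpoint libraries lay below all Vehicle libraries, and Rebound mouse 49827 lay within the Endpoint range. Scarb1 fell by 2.01 at Endpoint, or 4.04-fold (SE 0.39, edgeR adjusted p = 0.0022), and was higher by 1.92 at Rebound than at Endpoint (SE 0.39, adjusted p = 0.00323). The markers of tumour cells and oligodendrocyte precursors averaged 8.24, 4.22 and 8.14 log2 CPM at Vehicle, Endpoint and Rebound (exact two-sided permutation test, adjusted p = 0.0231 for Endpoint against Vehicle and 0.032 for Rebound against Endpoint), and their part was not tested. Without the 8 libraries highest in T and NK markers, which leaves 2 Endpoint mice, the Endpoint change was -1.35 with an adjusted p of 0.0596.

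The other members in the TC libraries did not pass the test in any stage comparison with all libraries. Pros1 ranged over 82.7 to 242 CPM in Vehicle, 41.5 to 237 at Endpoint and 59.9 to 260.4 at Rebound, and its Endpoint log2 change was -0.89 (SE 0.46, edgeR adjusted p = 0.16). Endpoint mouse 49843 held the value of 237 CPM, and without it the change was -1.47 (adjusted p = 0.00761). Axl ranged over 49.4 to 184, 83.6 to 322 and 64.5 to 179 CPM, and Tyro3 over 12.9 to 27.2, 2.65 to 29.98 and 14.8 to 34.7 CPM. Tyro3 was lowest in Endpoint mouse 49843 and otherwise at 14.95 CPM or above in that group. Cd36 reached 11.4, 61.0 and 15.6 CPM in the same groups, with an Endpoint change of 2.90 (SE 1.29, edgeR adjusted p = 0.103) that passed without Vehicle mouse 57098 (4.55, adjusted p = 0.0324) or Rebound mouse 49827 (2.90, adjusted p = 0.0446) and under DESeq2 (2.95, adjusted p = 0.0199). Msr1 had no count in 4 of 6 Endpoint libraries, where 3 steps of 2 counts would be 0.483 to 1.16 CPM, and reached 7.42 CPM in mouse 49843, without which its Endpoint change was -3.73 (adjusted p = 0.0389).

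Between the sorts, most members belonged to the TAM libraries and Tyro3 to the TC libraries. In Vehicle 8 of the 9 members tested were higher in TAM than in TC and 1 lower, with 54.8% of the 15668 genes called (25.6% higher and 29.2% lower). At Endpoint 7 were higher and 2 lower, with 51.1% of all genes called (18.7% higher and 32.4% lower), and at Rebound 6 were higher and 1 lower, with 47.8% called (20.4% higher and 27.4% lower). The median of all genes in these comparisons lay between -0.19 and -0.12 on the log2 scale. Mertk was higher in TAM by 5.48 (SE 0.62), 3.50 (SE 0.52) and 5.81 (SE 0.63) at Vehicle, Endpoint and Rebound, and Pros1 by 2.55 (SE 0.41), 3.31 (SE 0.39) and 2.31 (SE 0.41). Axl was higher by 2.59 (SE 0.41), 2.89 (SE 0.38) and 3.75 (SE 0.44). The largest edgeR adjusted p of these was 2.77e-05. Mertk was higher by 6.14 in Vehicle without TC mouse 54363 and by 6.44 at Rebound without TC mouse 49827 (6.69 without the 8 libraries), and Pros1 by 4.04 at Endpoint without TC mouse 49843 (2.51 without the 8 libraries).

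Tyro3 was lower in TAM by 5.11 at Vehicle (log2 -5.11, SE 0.79, edgeR adjusted p = 3.02e-06), with differences of -3.80 (SE 0.68) at Endpoint and -3.22 (SE 0.71) at Rebound, the last -4.41 with the mouse as a replicate block. Gas6 was higher in TAM by 2.70 in Vehicle (SE 0.46, edgeR adjusted p = 1.2e-05) and lower at Endpoint, with a log2 difference of -1.68 (SE 0.40, adjusted p = 0.000981). The Endpoint value was -1.08 without TC mouse 49845 (edgeR adjusted p = 0.0107) and -2.37 without the 8 libraries (adjusted p = 0.000466). At Rebound its difference was 0.95 (SE 0.44, edgeR adjusted p = 0.0724), which passed without TAM mouse 49827 (1.11, adjusted p = 0.0453) or TC Endpoint mouse 49845 (0.95, adjusted p = 0.0304). Scarb1 was higher in TAM by 1.42 in Vehicle (SE 0.33, edgeR adjusted p = 0.0006) and by 1.54 at Endpoint (SE 0.31, adjusted p = 0.000142), with a difference of 0.42 at Rebound (SE 0.33, adjusted p = 0.309), and without the 8 libraries its Endpoint value was 0.86 (adjusted p = 0.0493). Msr1 at Endpoint was higher in TAM by 3.03 (SE 1.02, edgeR adjusted p = 0.0144), a value of 5.98 without TC mouse 49843 and a call lost without TAM mouse 49843 (2.19, adjusted p = 0.0702) and without the 8 libraries highest in T and NK markers (1.20, adjusted p = 0.439). Cd36 at Endpoint, at 3.46 (SE 1.00, edgeR adjusted p = 0.00481), was lost without those libraries too (2.83, adjusted p = 0.0975) and was 4.16 without TC mouse 49843.

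**Figure D4:**
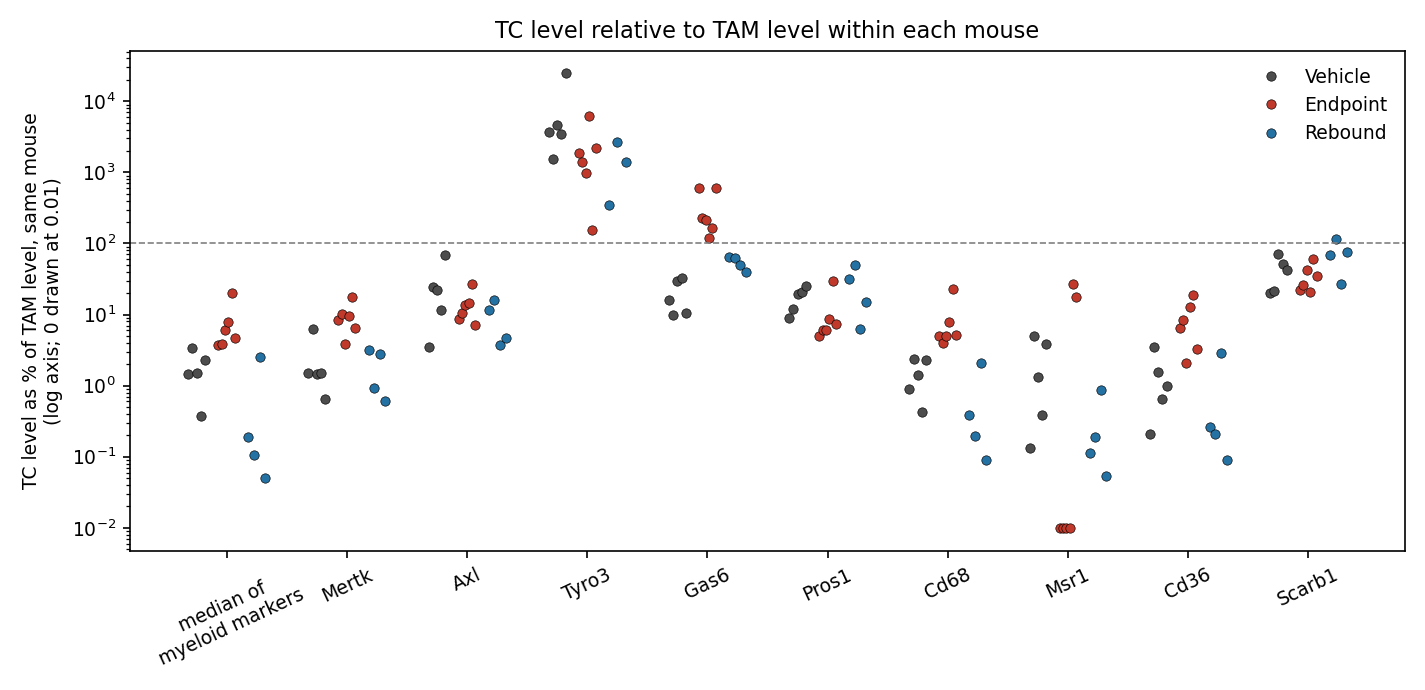
TC level as a percentage of the TAM level in the same mouse, on a log axis, for the median of the myeloid markers and 9 members; points are mice coloured by stage, and values of 0 are drawn at 0.01. Mertk, Cd68 and Cd36 lie near the myeloid markers at Vehicle and Endpoint, while Gas6 at Endpoint lies above 100% in all 6 mice.

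The levels of both sorts were also set side by side within each mouse. The median myeloid marker in the TC library was 0.375 to 3.33% of its TAM level in Vehicle, 3.72 to 20.0% at Endpoint and 0.051 to 2.56% at Rebound. Cd68 followed with 0.426 to 2.34%, 3.97 to 23.0% and 0.0886 to 2.11%. Mertk stood at 0.654 to 6.26%, 3.90 to 17.8% and 0.612 to 3.14%. Mertk exceeded 7 myeloid markers (all but Ptprc, which lymphocytes share) in 1 of 5 Vehicle mice, 2 of 6 Endpoint mice and 3 of 4 Rebound mice.

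Gas6 in the TC library was 9.76 to 33.1% of the TAM level in Vehicle, 119 to 610.2% at Endpoint and 40.2 to 65.1% at Rebound, above those 7 markers in every mouse. Scarb1, at 19.8 to 70.7%, 20.4 to 60.6% and 27.2 to 117%, and Tyro3, at 153% or more throughout, were above them in every mouse where they could be set side by side. Axl was above them in 5 of 5, 4 of 6 and 3 of 4 mice, and Pros1 in 5 of 5, 1 of 6 and 4 of 4. Msr1 was above them in 0 of 5, 1 of 6 and 1 of 4 mice, Cd36 in 0 of 5, 3 of 6 and 1 of 4, and Cd68 in 0 of 5, 0 of 6 and 1 of 4.

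Whether a stage change differed between the sorts was tested as the TAM change minus the TC change. At Endpoint against Vehicle this difference was negative for 3 of the 9 members, with 25.7% of all genes called (8.73% higher and 17% lower), and at Rebound against Endpoint it was positive for 4, with 20.6% called (13.4% higher and 7.18% lower). The medians over all genes were -0.16 and 0.15. The first count was 1 without TAM Vehicle mouse 54359 or TC Vehicle mouse 57682, where 3523 and 3545 of all genes were called, against 4025. At Rebound against Vehicle 0 members were called by edgeR, and 0.517% of all genes were called (0.319% higher and 0.198% lower). An unadjusted p under 0.05 was found for 4 members. The share of all genes at that unadjusted threshold was not computed, so this count has no background beside it. Gas6 had the largest Endpoint difference at -4.38 (SE 0.61, edgeR adjusted p = 1.99e-05). Of the members called, Cd68 followed at -2.66 (SE 0.90, adjusted p = 0.0292) and Mertk at -1.98 (SE 0.70, adjusted p = 0.0367). Msr1 at -2.955 (SE 1.41, edgeR adjusted p = 0.124) and Cd36 at -2.50 (SE 1.37, adjusted p = 0.186) were not called. From Endpoint to Rebound the difference was 6.22 for Msr1 (SE 1.54, edgeR adjusted p = 0.00579), 3.89 for Cd68 (SE 0.92, adjusted p = 0.00401), 2.63 for Gas6 (SE 0.59, adjusted p = 0.00266) and 2.31 for Mertk (SE 0.71, adjusted p = 0.021). For Scarb1 at Endpoint the difference was 0.11 (SE 0.44, edgeR adjusted p = 0.883).

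The Mertk call at Endpoint was lost in 14 of 39 settings and the Cd68 call in 5, and both were lost without TC Endpoint mouse 49843, at -1.56 (adjusted p = 0.0905) and -1.62 (adjusted p = 0.123). The Msr1 call rested on the same library, without which its difference was 3.28 (edgeR adjusted p = 0.201). It was 7.05 without TAM Endpoint mouse 49843, 7.70 without the 8 libraries highest in T and NK markers and 5.12 with the replicate block. Gas6 was at -3.78 for Endpoint against Vehicle and 2.04 for Rebound against Endpoint without TC Endpoint mouse 49845, and at -5.07 for the former without the 8 libraries. For Endpoint against Vehicle Mertk was at -2.64 without TC Vehicle mouse 54363, and Cd68 at -3.59 without the 8 libraries. For Rebound against Endpoint, leaving out TC Rebound mouse 49827 or the 8 libraries gave 5.78 and 6.95 for Cd68 and 2.94 and 3.56 for Mertk, and Cd68 was at 2.91 without TC Endpoint mouse 49843. With the mouse as a replicate block in a paired fit, Cd36 also passed, at -2.62 (edgeR adjusted p = 0.0347) for Endpoint against Vehicle and 4.23 (adjusted p = 0.00985) for Rebound against Endpoint.

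Other genes of uptake in TAMs were followed in 5 lists holding 77 genes, of which 69 were tested. At Endpoint against Vehicle 7 were higher and 30 lower, with a median log2 change of -0.63 beside -0.03 over all genes, of which 13.7% were higher and 19.3% lower. At Rebound against Endpoint 29 were higher and 2 lower, with a median of 0.60 beside 0.02, where 11.7% of all genes were higher and 5.9% lower. At Rebound against Vehicle 8 were higher and 8 lower, with a median of 0.02 beside 0.02, where 7% of all genes were higher and 7.73% lower. The lists were chosen with earlier results of these data known, and the genes named below by lowest adjusted p. Counts and medians beside all genes, here and below, therefore describe the lists and do not test them. They were not computed without the 8 libraries highest in T and NK markers, 3 of them TAM Rebound libraries.

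**Figure D5:**
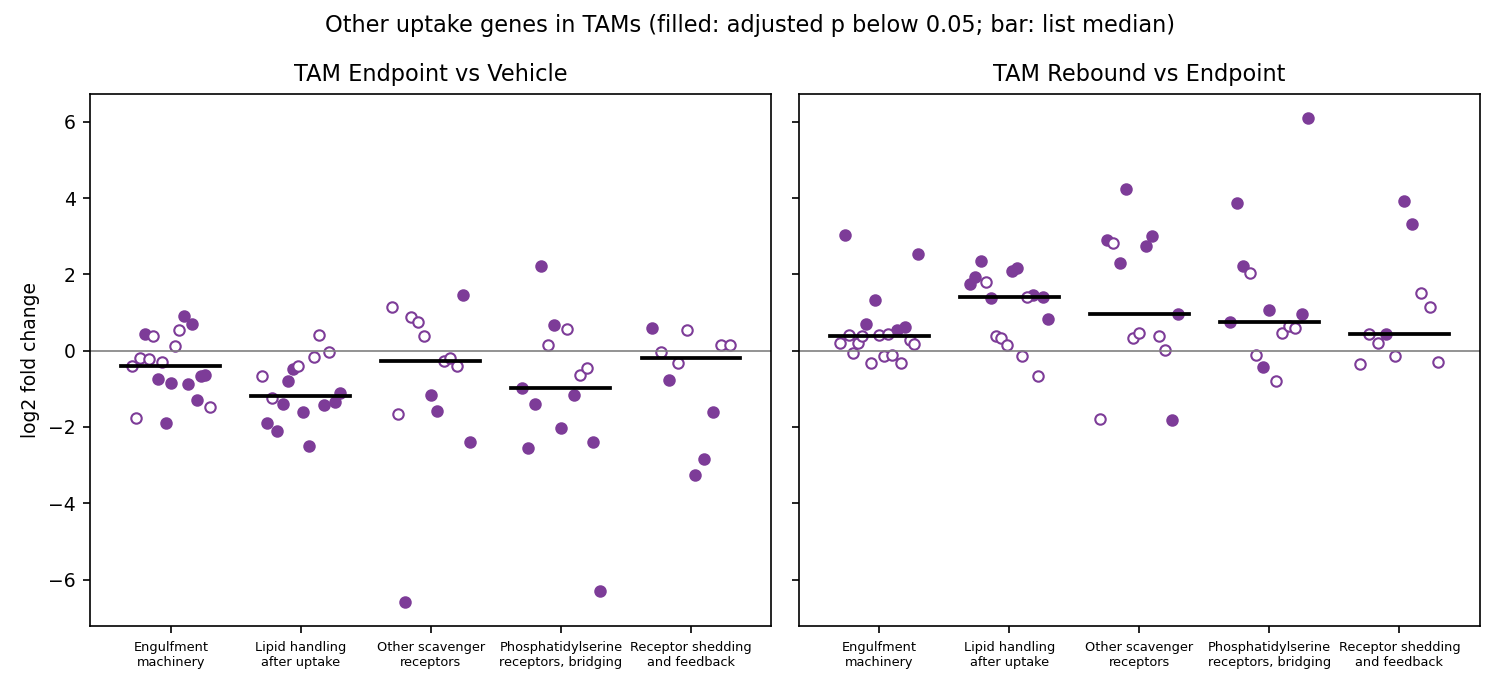
Log2 fold changes (edgeR) of the genes in 5 lists of uptake genes in TAMs, for Endpoint against Vehicle and Rebound against Endpoint. Each point is a gene, filled where its adjusted p is below 0.05, and bars are list medians; the lipid handling list has its median at -1.18 in the first comparison and 1.40 in the second.

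Genes that handle lipid after uptake had 10 of 16 tested members lower and 0 higher at Endpoint (median -1.18), beside 19.3% of all genes lower and 13.7% higher, and 9 higher and 0 lower at Rebound against Endpoint (median 1.40), beside 11.7% of all genes higher and 5.9% lower. Soat1, which esterifies cholesterol for storage, was at 339.8 ± 70.6 CPM in Vehicle (SD, n = 5), 134.5 ± 24.7 at Endpoint (SD, n = 6) and 354.5 ± 44.3 at Rebound (SD, n = 5). Its log2 changes were -1.34 and then 1.40 (SE 0.16 and 0.17, edgeR adjusted p = 1.55e-05 and 3.8e-05). Plin2, which coats lipid droplets, fell by 2.51 at Endpoint (SE 0.36, edgeR adjusted p = 6.44e-05). Rxra, a nuclear receptor that partners the sterol sensors, was higher by 1.46 at Rebound than at Endpoint (SE 0.21, edgeR adjusted p = 0.000224).

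Phosphatidylserine receptors and bridging proteins had 7 of 13 lower and 2 higher at Endpoint (median -0.98), beside 19.3% of all genes lower and 13.7% higher, and 6 higher and 1 lower at Rebound against Endpoint (median 0.74), beside 11.7% of all genes higher and 5.9% lower. Stab1, a receptor for phosphatidylserine and modified lipoproteins that stands in 2 lists, fell from 401 ± 145 CPM (SD, n = 5) to 76.3 ± 15.3 (SD, n = 6), by 2.39 on the log2 scale (edgeR adjusted p = 5.27e-06). The integrin subunit Itgb3 fell by 2.02 (edgeR adjusted p = 2.36e-06), while its partner Itgav rose by 0.67 (adjusted p = 0.00161) and was lower by 0.43 at Rebound than at Endpoint (log2 -0.43, adjusted p = 0.0417). Edil3, a bridging protein, rose by 2.21 from 0.244 CPM (edgeR adjusted p = 0.0433). At Rebound Timd4, the TIM-4 receptor, was higher than at Endpoint by 6.10 (SE 0.92, edgeR adjusted p = 0.000409) at 12.5 ± 17.2 CPM (SD, n = 5), and Cd300lb by 3.88 (SE 0.51, adjusted p = 0.000188).

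Other scavenger receptors had 4 of 13 lower and 1 higher at Endpoint (median -0.27), beside 19.3% of all genes lower and 13.7% higher, and 6 higher and 1 lower at Rebound against Endpoint (median 0.95), beside 11.7% of all genes higher and 5.9% lower. Lrp1, an endocytic receptor, fell by 1.16 (SE 0.17, edgeR adjusted p = 7.97e-05), and Scarf2 rose by 1.47 (adjusted p = 0.0437) to 2.496 ± 0.794 CPM (SD, n = 6) and was lower at Rebound (log2 -1.81, adjusted p = 0.0293). Clec7a, the beta-glucan receptor dectin-1, was at 115 ± 56.6, 211 ± 102 and 1029 ± 281 CPM over the stages and was higher by 2.29 at Rebound than at Endpoint (SE 0.38, edgeR adjusted p = 0.000685). Mrc1, the mannose receptor and a border macrophage marker, was higher there by 2.73 (SE 0.54, edgeR adjusted p = 0.00258).

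Engulfment machinery had 7 of 19 lower and 3 higher at Endpoint (median -0.41), beside 19.3% of all genes lower and 13.7% higher, and 6 higher and 0 lower at Rebound against Endpoint (median 0.37), beside 11.7% of all genes higher and 5.9% lower. Elmo2, an adaptor that helps activate Rac at the phagocytic cup, was at 195 ± 19.8 CPM in Vehicle (SD, n = 5), 52.0 ± 8.84 at Endpoint (SD, n = 6) and 129.9 ± 23.8 at Rebound (SD, n = 5). Its changes were -1.91 and then 1.32 (SE 0.16 for each, edgeR adjusted p = 3.88e-07 and 3.8e-05). The small GTPase Rac2 fell by 1.30 (edgeR adjusted p = 2.59e-05), whereas Rac1 rose by 0.70 (adjusted p = 0.0144) and Rab5a, of early endosomes, rose by 0.92 (adjusted p = 0.00688). Vav3, which activates Rac, was higher by 2.52 at Rebound than at Endpoint (edgeR adjusted p = 0.00861).

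The list of ligand processing, receptor shedding and feedback for TYRO3, AXL and MERTK had 4 of 10 lower and 1 higher at Endpoint (median -0.19), beside 19.3% of all genes lower and 13.7% higher, and 3 higher and 0 lower at Rebound against Endpoint (median 0.44), beside 11.7% of all genes higher and 5.9% lower. Lgals3, galectin-3, a further ligand reported for MERTK, fell by 3.25 at Endpoint and was higher by 3.92 at Rebound (edgeR adjusted p = 0.0016 and 0.00122). Socs3, a feedback inhibitor of cytokine signalling, fell by 2.83 and was then higher by 3.32 (edgeR adjusted p = 0.0026 and 0.00223). Adam10, a sheddase that can cleave AXL, rose by 0.58 at Endpoint (edgeR adjusted p = 0.0127).

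For each member the genes most alike in pattern over the 6 groups were found by the root mean square difference of centred log2 group means. Cd68 was closest to Ncf1, C1qa and C1qc, at 0.104, 0.143 and 0.202 log2 units, and Mertk to Lat2, Ctsh and Lyl1, at 0.134, 0.168 and 0.2 log2 units. Scarb1 was closest to Etv5 (0.161), Tyro3 to Slain1 (0.121), Pros1 to Vav2 (0.203), Axl to Gm14047 (0.222), Gas6 to 4933427G17Rik (0.254) and Cd36 to Cybb (0.371). Msr1 had the most distant nearest gene, Mgl2, at 0.458 log2 units.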

How the data were processed

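RNA was sequenced from sorted cells with a SMART-Seq kit and read pairs on an Illumina instrument, per the labels' protocols. The authors deposited whole-number counts per gene symbol. Reads were aligned with STAR 2.3.0e to mm10 and handled with SAMtools, per the submitters' processing notes. Counting program and annotation: not given in the sources used here. Coordinates, exon lengths and overlaps were taken from GENCODE M21 (GRCm38). Of the table's symbols 20953 were found there, and 1715 genes had no count.

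Groups came from cell type and stage. edgeR 4.0.16 in R 4.3.3 (filterByExpr, TMM, robust quasi-likelihood F test) was fitted to all genes of the 16 TAM libraries, the 16 TC libraries and, for comparisons of sorts, all 32. P-values were adjusted by Benjamini-Hochberg over all genes tested, with a threshold of 0.05, and SE was derived from the F statistic. The tests were tested on simulated data. Levels are TMM-scaled CPM, and log2 CPM used a prior count of 2. Marker lists were compared by exact permutation over 96 tests. The members and lists were chosen with earlier results of these data known. All members are named, and from each other list up to 2 genes a direction with the lowest adjusted p at Endpoint against Vehicle and Rebound against Endpoint in TAMs. No 2 libraries of a group agreed within sampling noise (lowest chi-square per degree of freedom 21 over 70 pairs). Same-numbered TAM and TC libraries come from 1 mouse, and their deviations from the group means correlated by 0.0138 to 0.355 over 14690 genes. Stages share no mice.

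Alternatives were RLE scaling, DESeq2 1.42.0, no filter, BLZ945 counts halved, Rn45s removed, only the groups compared, the mouse block, each library left out and, added after seeing the data, the 8 libraries with T and NK markers left out.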

Additional observations from a re-analysis of the deposited data

Results flagged for a closer look

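Of 56 sets of values (a member in a group), 14 held 1 library far from the rest. Its gap to the next library, over the range, passed 0.71 with 5 libraries or 0.625 with 6. The rule's rate of about 1 in 20 holds for independent, normally spread values. These sets share mice and use linear CPM, so the count was not set against chance. TC Endpoint mouse 49843 was the highest for Mertk at 136.3 CPM (others up to 75.8), Axl at 322.4 (up to 156.9), Pros1 at 237 (up to 73.96), Cd68 at 507.4 (up to 127.8) and Msr1 at 7.423 CPM (up to 0.6424). The TAM Endpoint library of that mouse was the highest for Msr1 at 19.81 CPM (others up to 7.561). TC Endpoint mouse 49845 held the highest Gas6 at 368.3 CPM (others up to 153.1). Vehicle mouse 57098 was the highest for Cd36 in both sorts, at 471.3 CPM in TAM (others up to 61.5) and 11.41 CPM in TC (others up to 3.115). TC Rebound mouse 49827 was the highest for Cd36 at 15.61 CPM (others up to 1.636) and Cd68 at 52.33 CPM (others up to 6.167). Vehicle mouse 54363 held the highest TC Mertk at 45.53 CPM (others up to 15.17). Marco was highest in TAM Vehicle mouse 54359 at 0.8199 CPM (others up to 0.1437) and was found in TC Rebound at 0.2359 CPM in mouse 49059 alone.

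The change between stages differed between TAM and TC libraries, by the test of the difference itself, for 4 members. For Endpoint against Vehicle the difference in log2 change was -4.383 for Gas6, -2.657 for Cd68 and -1.984 for Mertk. For Rebound against Endpoint it was 6.215 for Msr1, 3.888 for Cd68, 2.634 for Gas6 and 2.308 for Mertk.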

How the results depend on the processing

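Of 48 called member results, 36 kept direction and call in every setting run, 12 lost the call in some setting and 0 changed direction. Of 60 results not called, 21 changed direction and 19 gained a call somewhere. The causes were not tested, beyond the fewer libraries that leave-out settings hold.

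Without the 8 libraries highest in T and NK markers, members called fell to 0 at TAM Rebound against Vehicle and 1 at TAM Rebound against Endpoint, and rose to 1 at TC Rebound against Vehicle and 1 for the sort difference in Rebound against Vehicle. In that order 525, 592, 320 and 293 of all genes were called, against 1961, 2337, 11 and 81 with all libraries. DESeq2 called 5 members at TC Endpoint against Vehicle, and 5324 of all genes against 4305 in edgeR. The unfiltered fit called 1 member for the sort difference in Endpoint against Vehicle, and 3717 of all genes against 4025 with the filter. With single libraries left out, the count of members in TAM was 3 to 5 at Endpoint against Vehicle, 2 to 4 at Rebound against Vehicle and 2 throughout at Rebound against Endpoint. In that order it was 2 to 5, 0 to 1 and 4 to 6 in TC, and 1 to 3, 0 to 1 and 4 to 6 for the sort difference. With all libraries, 33%, 14.7% and 17.6% of all genes were called in TAM. The shares were 28.7%, 0.0734% and 25.1% in TC, and 25.7%, 0.517% and 20.6% for the sort difference. Shares for each library left out are not set beside these ranges, which therefore do not describe the members apart from other genes. Without TC Rebound mouse 49827, 586 of all genes were called at TC Rebound against Vehicle and 605 for the sort difference there.

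The log2 changes that turned sign were all of results not called. Without the 8 libraries highest in T and NK markers they were 0.11 for Mertk at TAM Rebound against Vehicle, 0.0362 for Mertk and 0.0405 for Pros1 at TAM Rebound against Endpoint, 1.05 for Msr1 at TC Endpoint against Vehicle, and -2.11 for Cd36 and 0.132 for Scarb1 at TC Rebound against Vehicle. Gas6 at TC Rebound against Vehicle was -0.0184 without a filter and -0.00504 with BLZ945 counts halved. With single libraries left out, TAM Endpoint against Vehicle ran from -0.045 to 0.176 for Mertk and -0.122 to 0.072 for Pros1. Pros1 ran from -0.241 to 0.064 at TAM Rebound against Vehicle and -0.221 to 0.094 at TAM Rebound against Endpoint. At TC Endpoint against Vehicle Axl ran from -0.00897 to 0.56, Tyro3 from -0.368 to 0.122 and Msr1 from -3.73 to 0.136. At TC Rebound against Vehicle Mertk ran from -1.18 to 0.117, Gas6 from -0.14 to 0.171, Pros1 from -0.119 to 0.297, Cd36 from -2.10 to 1.89 and Scarb1 from -0.245 to 0.132, and at TC Rebound against Endpoint Msr1 ran from -2.44 to 1.21. Among the differences between sorts, Axl, Pros1 and Scarb1 at Endpoint against Vehicle were -0.143, -0.044 and -0.563 without the 8 libraries highest in T and NK markers, and Tyro3 at Rebound against Endpoint was -0.691 with the replicate block. With single libraries left out Scarb1 ran from -0.0434 to 0.57 at Endpoint against Vehicle, and Mertk from -0.332 to 0.952 and Cd36 from -0.947 to 3.09 at Rebound against Vehicle. With the median of the markers in place of the mean, the monocyte list at TAM Rebound against Endpoint, the T and NK list at TAM Rebound against Vehicle and the list of tumour cells and precursors at TAM Endpoint and Rebound against Vehicle no longer passed (adjusted p = 0.0656, 0.104, 0.0562 and 0.118), nor did the endothelial list at TAM Endpoint and the myeloid list at TAM Rebound, both against Vehicle (adjusted p = 0.139 and 0.316).

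With the mouse as a replicate block (paired TAM and TC libraries), 9, 9 and 7 members were called between sorts at Vehicle, Endpoint and Rebound, and 4, 0 and 5 for the sort differences at Endpoint against Vehicle, Rebound against Vehicle and Rebound against Endpoint. In the same order 8391, 7719 and 6565 of all genes were called between sorts, and 3472, 4 and 2283 for the differences. No member lost its call under the block, and Cd36 was gained. Stage contrasts could not be blocked, since no mouse was sampled at more than 1 stage. Depth limits Marco and, in TC libraries, Msr1, whose counts were at or near 0.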
